A study of Mus musculus with 12 samples.

Results

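The comparison set trapped topoisomerase 1 directly against absent topoisomerase 1. It used 6 of the 12 RNA-seq libraries of the series, the 3 labelled WT-Topot and the 3 labelled Top1 cKO-Veh, and left out the vehicle-treated WT libraries as a reference. All cultures were cortical neurons prepared from C57BL6 mouse embryos at E13.5–15.5, and, per the study's methods, all carried floxed Top1 alleles (Top1 fl/fl) and were transduced at day 3 in vitro (DIV 3) with a lentivirus. WT-Topot cultures (genotype label Wild-type) received a virus for the red fluorescent protein tdTomato alone and 300 nM topotecan in 0.003% DMSO from DIV 15 for 3 days. Top1 cKO-Veh cultures (genotype label Top1cKO) received the virus that adds CRE recombinase (tdTomato-P2A-CRE) and 0.003% DMSO over the same days. The groups therefore differ in both the virus and the drug, and the contrast gives the difference between the 2 ways of losing TOP1 function, not the effect of either. They differ in timing too, with CRE given at DIV 3 and topotecan from DIV 15, so duration and mode of loss cannot be told apart. Both viruses were driven by the CaMKIIα promoter, which is active in neurons, so glia in the culture were not meant to be recombined, while topotecan in the medium reaches every cell. The labels put transduction at about 85 to 90% of cells, so some neurons of the Top1 cKO-Veh cultures may have kept TOP1. The exon flanked by loxP sites is exon 3, so counts on the other exons can come from recombined cells too. The study describes its replicates as cultures. The sources used here do not say whether these came from separate embryos or days, so p-values measure the spread between these cultures.

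TOP1 relaxes DNA supercoils by nicking 1 strand, holding the broken end through a covalent bond and resealing it. Topotecan does not remove the enzyme but stops the resealing step, so that TOP1 stays bound to the nick as a TOP1 cleavage complex, an obstacle to an elongating RNA polymerase. Deletion of Top1 takes away both the activity and the complex. Long genes are known to be sensitive to loss of TOP1 activity in neurons, where many of the longest genes code for synaptic adhesion molecules, receptors and ion channels. Immediate early genes (IEGs) are a contrasting class, being short genes that neuronal firing switches on within minutes through calcium signalling.

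The 6 libraries held between 1991007 and 4583777 counts over 23893 gene symbols, and the 10 most abundant genes took 2.37% to 2.62% of a library. A level of 1 CPM (counts scaled to library totals with factors from the trimmed mean of M values, TMM) stood for 2.005 to 4.27 counts, so levels of a few CPM carry a large counting error. Top1 itself was checked first. It measured 131, 139.7 and 133 CPM in the 3 WT-Topot libraries and 30.6, 44.97 and 26.9 CPM in the 3 Top1 cKO-Veh libraries, and the groups did not overlap. The mean was 135 ± 4.44 CPM against 34.2 ± 9.54 CPM (SD, n = 3), a log2 fold change of 1.96 (SE 0.21, edgeR quasi-likelihood test, FDR = 3.88e-05). The WT-Veh libraries, which took no part in the test, averaged 136 CPM, near the drug-treated level. What remains in Top1 cKO-Veh cannot be told apart into unrecombined cells and transcripts without exon 3. Throughout, a positive log2 fold change means higher in WT-Topot, a negative one lower in WT-Topot, and an FDR is a Benjamini-Hochberg adjusted p over all 23893 genes with a threshold of 0.01.

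Markers of other cell types differed between the groups and are given first, since they touch later results. Beside the edgeR calls, the counts from a fit that pairs the libraries by replicate number (the block) are given where they differ. The summed level of 13 astrocyte markers was 2194, 1606 and 1284 CPM in the WT-Topot libraries and 6944, 4390 and 2880 CPM in the Top1 cKO-Veh libraries, without overlap, and 12 of the 13 had negative log2 fold changes (median -1.43). Of these markers, 4 were called lower in WT-Topot: the glutamate transporters Slc1a2 (log2 fold change -1.83, FDR = 9.32e-05) and Slc1a3 (-1.67, FDR = 0.00354), the bicarbonate transporter Slc4a4 (-2.54, FDR = 0.000465) and the intermediate filament gene Gfap (-2.57, FDR = 0.00131). Gfap measured 184, 56.9 and 104 CPM with topotecan and 1253, 366 and 429 CPM with deletion, the first Top1 cKO-Veh library standing highest. With the block 7 astrocyte markers were lower. The fit restricted to genes of at least 1 CPM called only Slc1a2 (FDR = 0.00367). The Slc1a3 call was lost without the third WT-Topot library (FDR = 0.0170), and 9 markers were called without the third Top1 cKO-Veh library. No astrocyte marker was at 0 in all 6 libraries. The summed excitatory neuron markers (15 genes) spanned 3817 to 4069 CPM in WT-Topot and 3442 to 3648 CPM in Top1 cKO-Veh, with none of the 15 at 0 in any library, and the single call was Rbfox3, the gene of the neuronal nuclear antigen NeuN, lower in WT-Topot (-1.01, FDR = 0.00174; 2 lower and 2 higher with the block). Among 14 interneuron markers, summed at 635 to 1130 CPM in WT-Topot and 1322 to 1543 CPM in Top1 cKO-Veh, Gad2, which makes the transmitter GABA, was lower (-1.11, FDR = 0.00122) and Calb2, the calcium-binding protein calretinin, was higher (1.67, FDR = 0.00123), while the blocked fit called 8 lower and 1 higher. Oligodendrocyte (8 measured genes), microglia (4), endothelial and mural (7) and proliferation markers (10) held no calls by unblocked edgeR, the exact test or DESeq2, with 3 genes lower and 6 higher in all at an unadjusted p of 0.05, and microglial markers summed to at most 35.8 CPM in any library, with Aif1, Csf1r and Tyrobp at 0 in at least 1 library. The blocked fit called 2 proliferation and progenitor markers higher, Vim (1.03 unblocked, FDR = 2.2e-10 with the block) and Nes (0.74, FDR = 9.52e-05), and of the oligodendrocyte markers Cnp higher (1.16, FDR = 1.32e-05) and Mbp lower (-0.64, FDR = 0.00775). In bulk RNA, fewer cells of a type and less RNA per cell cannot be told apart, and the part these marker differences play in the results below was not tested.

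**Figure D1:**
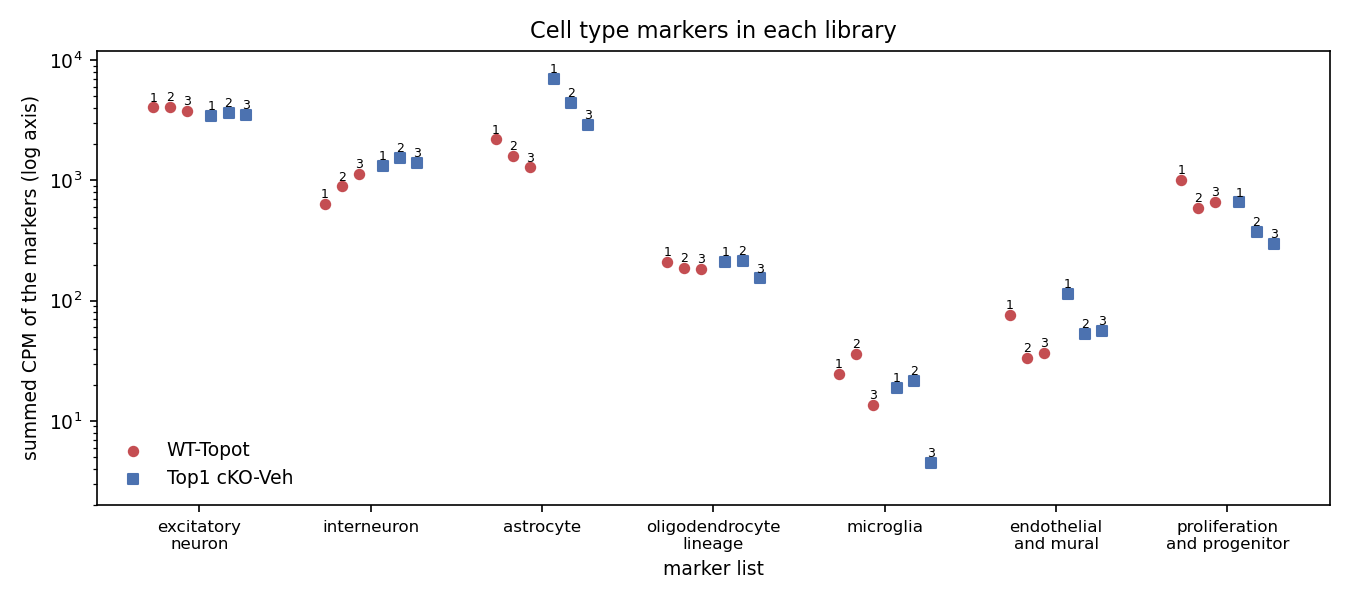
Summed CPM (log axis) of 7 lists of cell type markers in each library, numbered 1 to 3 within its group, with WT-Topot as circles and Top1 cKO-Veh as squares. The astrocyte sums of the groups do not overlap (1284 to 2194 against 2880 to 6944 CPM), nor do the interneuron sums (635 to 1130 against 1322 to 1543 CPM). The excitatory neuron sums all lie between 3442 and 4069 CPM, also without overlap, and are the higher ones in WT-Topot.

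Most of the differences between trapped and absent TOP1 were in one direction. By edgeR, 295 genes were lower and 70 were higher with trapped TOP1 at FDR 0.01 out of 13703 genes averaging 1 CPM or more, which is 2.15% and 0.511%. All 365 had libraries that did not overlap between the groups, against 12.1% (lower) and 12.4% (higher) of all 13703 genes. The median called difference was 2.82-fold in the lower genes and 2.79-fold in the higher genes. At an unadjusted p of 0.05, 1603 genes lay lower and 1291 higher. Over all 13703 genes the median log2 fold change was 0.01 and 6723 values were negative. With the replicate number as a block, which pairs the libraries, 1147 genes were lower (8.37%) and 699 higher (5.1%), and these included all 365. A fit restricted to genes of at least 1 CPM gave 165 lower (1.2%) and 32 higher (0.234%), all among the 365. Of the genes named here, that fit ended the calls of Cacna1e, Cck, Cdh13, Cntnap2, Galntl6, Gdf11, Gfap, Gpr4, Irf9, Ldhd, Magi2, Msi2, Nf1, Nlgn1, Npas4, Plxna4, Qars, Rab7l1, Rbfox1, Rsph4a, Sec14l3, Slc1a3, Slc4a4 and Slc7a3, and of the IEG factors Egr3, Junb, Klf10 and Nr4a2, with FDR of at most 0.0284. Without TMM scaling, on library totals, the split was 261 lower and 121 higher. Leaving out the second Top1 cKO-Veh library lowered the calls to 173 and 41, leaving out the first WT-Topot library gave 188 and 48, leaving out the third WT-Topot library 187 and 57, leaving out the first Top1 cKO-Veh library 422 and 187, and leaving out the third Top1 cKO-Veh library raised them to 652 and 219.

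Gene length separated the 2 directions. The lower genes had a median span of 334 kb, and 226 of the 291 with a known span exceeded 100 kb, whereas the higher genes had a median span of 15.4 kb with 6 of 69 over 100 kb, and genes without a call had a median of 23.6 kb (spans from the GENCODE vM1 annotation of mm9). Among the 463 genes over 300 kb, 161 (34.8%) were lower and none was higher by edgeR. The exact test and DESeq2 also called none of them higher, and 2 of them were higher at an unadjusted p of 0.05 against 341 lower. Their median log2 fold change was -1.11, 92.2% had a negative value, and the blocked fit called 297 lower and 3 higher. In the 1545 genes of 100 to 300 kb, 65 (4.21%) were lower and 6 higher, with a median of -0.31, while the blocked fit called 365 lower (23.6%) and 31 higher. Up to 100 kb the shares called in either direction stayed at or under 0.768% without the block, and with it ran from 2.95% to 5.62% lower and from 4.58% to 6.31% higher. Genes of 30 to 100 kb gave 23 lower and 15 higher of 3753, those of 10 to 30 kb gave 16 and 25 of 4170, and those of up to 10 kb gave 26 and 23 of 3384, with medians between 0.01 and 0.11. Summarised per library, the level of long genes relative to short ones (median log2(CPM + 1) above 100 kb, less the median up to 100 kb) was -0.13, 0.21 and -0.02 in WT-Topot and 0.70, 0.77 and 0.37 in Top1 cKO-Veh. The difference was -0.60, with no overlap between groups and p = 0.1 in the two-sided exact permutation test, the smallest p that 3 against 3 libraries allow. The count of lower genes over 300 kb was 101 without the second Top1 cKO-Veh library, 246 without the third, and 201 without the first.

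**Figure D2:**
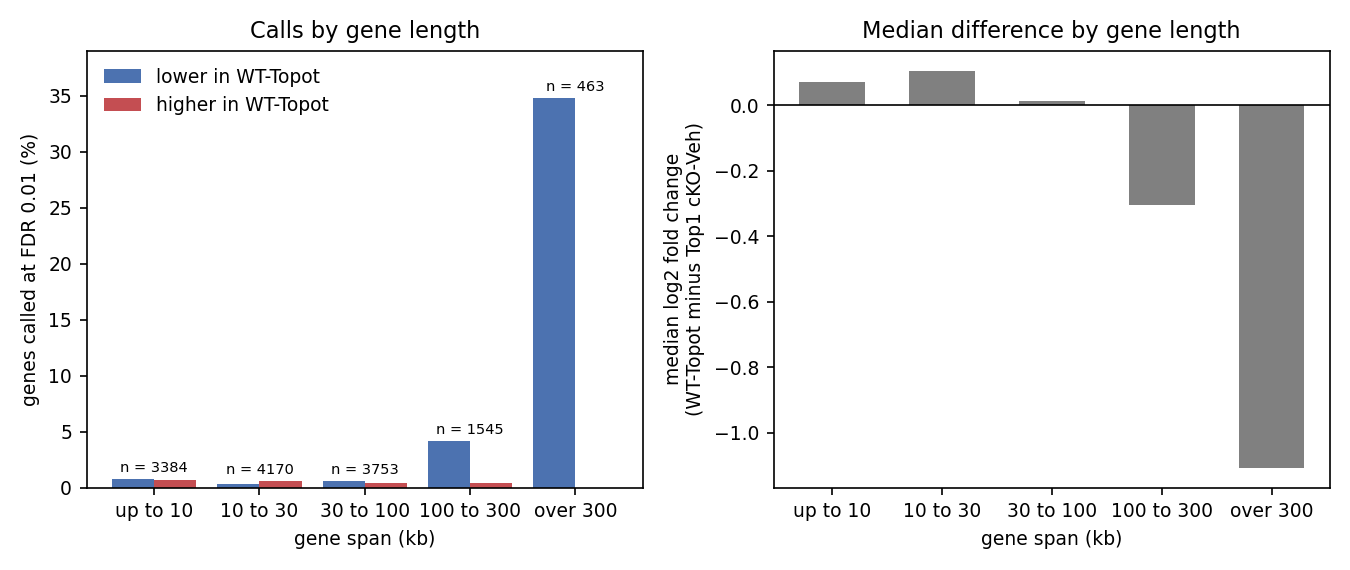
Left, the percentage of genes called at FDR 0.01 as lower or higher with trapped than with absent TOP1 in 5 bins of gene span in kb, with the number of genes in each bin. Right, the median log2 fold change in the same bins, which stands at -1.11 over 300 kb and between 0.01 and 0.11 up to 100 kb.

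The 15 largest differences among lower genes of at least 5 CPM came mostly from very long genes. Nell1, a secreted protein with EGF-like repeats (890.4 kb), measured 1.02, 1.14 and 0.876 CPM with trapped TOP1 and 15.1, 24.4 and 18.95 CPM with absent TOP1 (-4.20, SE 0.42, FDR = 2.72e-05). Nrg3, a neuregulin ligand of ErbB4 (1104 kb), measured 2.04, 7.73 and 4.38 CPM and 53.2, 52.2 and 38.9 CPM (-3.31, SE 0.35, FDR = 3.52e-05). Every deletion library thus stood far above every drug library for both. The heparan sulfate proteoglycan Gpc6 (-3.04), the adhesion molecules Lsamp (-2.98) and Dscam (-2.90), the transferase Galntl6 (-3.24) and the transcription factor Npas3 (-2.88) were of the same kind, with FDR between 3.52e-05 and 0.00239. Short exceptions among the 15 were Nr4a1, Ptgs2 and Crhbp, the binding protein of corticotropin-releasing hormone, which spans 13.46 kb and measured 2.04, 1.14 and 2.63 CPM against 12.7, 24.8 and 15.96 CPM (-3.25, FDR = 0.000252). No span was matched for 1700010K23Rik (-3.54, FDR = 0.000717).

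Cell adhesion molecules of the synapse gave 19 lower genes, the highest count of the lists described here, which is also the longest of them. These were 28.8% of its 66 measured members, a smaller share than in the lists of IEG transcription factors (45%), effector genes (37.04%), astrocyte markers (30.8%), glutamate receptors (30.4%) and sodium and calcium channels (29.2%). A single member was higher, with a list median of -0.75 against 0.01 over all genes (31 lower and 4 higher with the block, 12 and 1 with the 1 CPM filter). Ctnna2, an α-catenin that links cadherins to actin (chr6:76831631-77929693, 1098 kb), measured 4.76, 11.4 and 12.7 CPM with trapped TOP1 and 140.2, 109.9 and 120.2 CPM with absent TOP1. Cadm2, a synaptic immunoglobulin adhesion molecule (chr16:66655666-67621153, 965 kb), measured 22.1, 53.8 and 37.7 CPM and 410.3, 359.8 and 255 CPM. Each Top1 cKO-Veh library thus exceeded every WT-Topot library several times over, and the log2 fold changes were -3.68 (SE 0.28, FDR = 4.91e-06) for Ctnna2 and -3.17 (SE 0.27, FDR = 1.24e-05) for Cadm2. The presynaptic organiser Nrxn3 (21.3 ± 4.92 against 122 ± 22.8 CPM, log2 fold change -2.52, FDR = 1.32e-05) and the neuronal growth regulator Negr1 (75.2 ± 22.8 against 430.1 ± 85.2 CPM, -2.51, FDR = 1.32e-05) showed the same pattern. Cntnap2, at 2241 kb one of the longest genes of the genome, was barely detected with trapped TOP1, at 0, 0 and 1 counts against 16, 21 and 7 counts. By group mean it was at least 4.63-fold lower when 3 counts per library are taken as the floor (FDR = 0.00295). That call was lost without the second Top1 cKO-Veh library (FDR = 0.0115) or the first WT-Topot library (FDR = 0.0122).

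Other synaptic genes of great length were less uniform. Nlgn1 (702 kb), a postsynaptic adhesion molecule that binds neurexins, was lower, at 15.3, 34.6 and 17.5 CPM against 80.2, 82.2 and 49.4 CPM (-1.64, FDR = 0.00305), a call lost when the second Top1 cKO-Veh, the first WT-Topot or the third WT-Topot library was left out (FDR = 0.0129, 0.0107 and 0.0163). Dlg2, the gene of the postsynaptic scaffold PSD-93, gave 263, 408 and 309.97 CPM against 471, 492 and 329.7 CPM with overlapping groups (-0.40, FDR = 0.422, and 0.00591, past the threshold, with the block), although it spans 1945 kb. A long span and a call thus did not always go together. WT-Veh levels lay above both groups for both genes, at 167 CPM for Nlgn1 and 979.5 CPM for Dlg2.

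**Figure D3:**
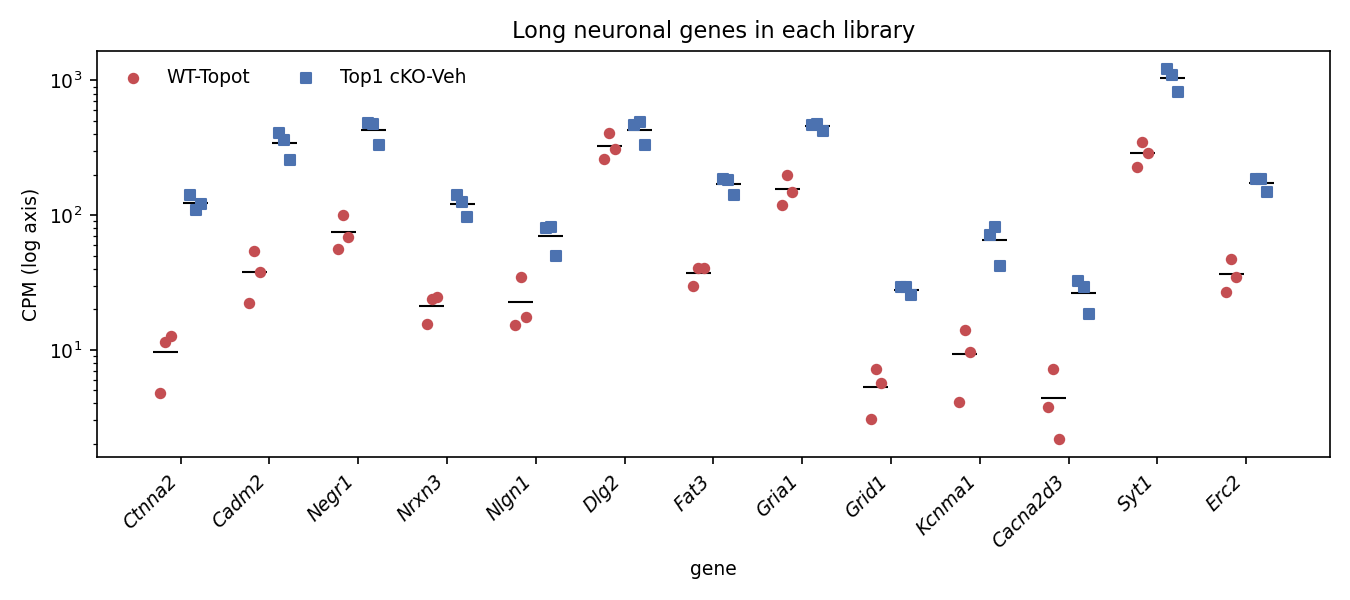
CPM on a log axis of 13 long neuronal genes in the 3 WT-Topot libraries (circles) and the 3 Top1 cKO-Veh libraries (squares), with horizontal lines at the group means. The groups do not overlap for 12 of the genes, while those of Dlg2 do.

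Other classes of cell surface and guidance genes followed. Over all genes 2.15% were lower and 0.511% higher, against 34.8% lower over 300 kb and 4.21% at 100 to 300 kb. Members over 100 kb numbered 21 of 30 cadherins and protocadherins, 29 of 38 guidance genes and 17 of 23 glutamate receptor subunits. They numbered 15 of 24 sodium and calcium channel, 19 of 47 potassium channel, 18 of 46 release and 13 of 24 scaffold genes. Whether these lists differ from other genes of like length was not tested. Cadherins and protocadherins had 8 lower and none higher of 30 by edgeR (median -0.51; 13 lower and 2 higher with the block, 4 and none with the filter), led by the giant cadherin Fat3 (-2.20, FDR = 1.32e-05), Cdh4 (-1.45, FDR = 0.00073), Cdh13 (-3.14, FDR = 0.000783) and Cdh8 (-1.49, FDR = 0.00203). Fat3 measured 29.6, 40.6 and 40.7 CPM against 187, 181 and 142 CPM. The Cdh8 call was lost without the first (FDR = 0.0109) or the third (FDR = 0.0134) WT-Topot library. Of 38 axon guidance genes, 7 were lower and none higher by edgeR (median -0.62; 1 higher by DESeq2; 18 lower and 1 higher with the block, 3 and none with the filter). Among them, Sema5a, a semaphorin, measured 19.5 ± 5.10 CPM against 138 ± 37.2 CPM (-2.83, SE 0.25, FDR = 1.32e-05). The netrin receptor Dcc (-2.94), the ephrin receptor Ephb1 (-1.92) and the semaphorin receptor Plxna4 (-1.61) were lower too, with FDR of 0.000572, 0.000502 and 0.000958. In the perineuronal matrix list, 1 of 10 genes was lower, Tnr, which codes for tenascin-R (-2.13, FDR = 0.000225), and the blocked fit called 5 lower and 1 higher.

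Receptors for glutamate, the excitatory transmitter, were among the lists with the lowest medians. Of 23 glutamate receptor subunits, 7 were lower and none higher (median -1.28; 14 and none with the block, 5 and none with the filter), and all 7 exceeded 100 kb. Gria1, a main subunit of AMPA receptors (chr11:56824889-57143746, 319 kb), measured 119.97, 200.03 and 149.7 CPM with trapped TOP1 and 467, 479 and 421 CPM with absent TOP1 (-1.54, SE 0.19, FDR = 0.000124). Its homologue Gria3 (-1.55, FDR = 0.000812), the delta receptor Grid1 (-2.38, FDR = 0.000313) and the metabotropic receptor Grm3 (-1.75, FDR = 0.00112) went the same way.

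Ion channels gave 7 lower of 24 sodium and calcium channel genes (median -0.33; 11 lower and 1 higher with the block, 3 lower with the filter) and 8 lower of 47 potassium channel genes (median -0.45; 23 lower and 2 higher with the block, 7 lower with the filter), with no higher call by unblocked edgeR in either (1 potassium channel gene higher by the exact test and by DESeq2). Cacna2d3, an accessory calcium channel subunit, measured 3.74, 7.15 and 2.19 CPM against 32.2, 29.3 and 18.5 CPM (-2.55, FDR = 0.000646). The pore-forming subunits Cacna1c (-1.77) and Cacna1e (-1.38) and the accessory subunit Cacnb4 (-0.95) were lower with FDR of 0.000883, 0.0022 and 0.003. Without the second Top1 cKO-Veh library the FDR rose to 0.0124 for Cacna1e and 0.0147 for Cacnb4, without the third WT-Topot library to 0.0110 for Cacna1e, and without the first to 0.0176 for Cacnb4. Kcnma1, the large-conductance calcium-activated potassium channel, was at 4.08, 14.02 and 9.63 CPM with trapped TOP1 and at 71.1, 81.8 and 41.9 CPM with absent TOP1 (-2.80, FDR = 0.000142). The A-type channel Kcnd2 (-1.61, FDR = 0.000662) and the channel-interacting proteins Kcnip4 (-2.23, FDR = 0.000499) and Kcnip3 (-1.41, FDR = 0.000172) were also lower, Kcnip3 from a gene of 65.6 kb.

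The release machinery of the presynapse had 10 lower and no higher genes of 46 (median -0.28; 20 and 2 with the block, 7 and none with the filter), and 4 of the 10 spanned less than 100 kb. Syt1, the calcium sensor of vesicle fusion (513 kb), measured 226, 347 and 289 CPM and 1212, 1102 and 828 CPM (-1.87, SE 0.19, FDR = 2.72e-05). The active zone scaffolds Erc2 (-2.25, FDR = 1.66e-05), Rims1 (-1.90, FDR = 0.000415) and Pclo (-1.54, FDR = 0.000564) were lower as well. On the postsynaptic side, 3 of 24 scaffold genes were lower (median -0.30; 8 lower and 1 higher with the block), namely Gphn (-1.51), which anchors inhibitory receptors, Dlgap2 (-1.77) and Magi2 (-1.38), with FDR of 0.000812, 0.0015 and 0.00484. Among 46 elongation and splicing factors 4 were lower, the elongation factor Aff3 (-1.72, FDR = 0.000499) and the RNA-binding proteins Rbfox3, Msi2 (-0.92, FDR = 0.00833) and Rbfox1 (-0.85, FDR = 0.00951), and the list median was -0.03 (10 lower and 2 higher with the block, 2 and none with the filter). Leaving out the second Top1 cKO-Veh library ended the calls of Magi2 (FDR = 0.0372), Msi2 (FDR = 0.0441), Rbfox1 (FDR = 0.0433) and Rbfox3 (FDR = 0.0142), and leaving out the first or the third WT-Topot library those of Magi2, Msi2 and Rbfox1 (FDR between 0.0117 and 0.0565).

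IEG transcription factors, all of them short genes, were among the lower calls. All 20 listed members were measured, the median span was 6.17 kb and none exceeded 100 kb. By edgeR, 9 were lower and none was higher with trapped TOP1 than with absent TOP1 (45% against a background of 2.15%), 19 of 20 log2 fold changes were negative, and the list median was -1.14. With the block 14 were lower, with the filter 4, and between 7 and 14 when 1 library was left out, the 14 without the third Top1 cKO-Veh library. Without the first Top1 cKO-Veh library 9 were lower. Nr4a1, an orphan nuclear receptor (chr15:101097277-101105223, 7.95 kb), measured 8.16, 5.15 and 14.01 CPM in WT-Topot and 70.7, 109 and 60.8 CPM in Top1 cKO-Veh. Fos, a subunit of the AP-1 complex (chr12:86814840-86818223, 3.38 kb), measured 13.6, 12.02 and 7.44 CPM and 77.05, 88.5 and 31.9 CPM. Both were lower in every drug-treated library than in any library of the deletion, by 9.17-fold for Nr4a1 (log2 fold change -3.20, SE 0.32, FDR = 2.72e-05) and 5.94-fold for Fos (-2.57, SE 0.34, FDR = 0.000234). The zinc finger factors Egr4 (13.8 ± 4.39 against 59.999 ± 8.33 CPM, -2.13, FDR = 0.000123) and Egr1 (70.6 ± 20.03 against 225 ± 30.6 CPM, -1.68, FDR = 0.000172) followed. Npas4, a neuron-specific factor induced by calcium entry (chr19:4984355-4989971, 5.62 kb), was lower at 2.72, 1.14 and 7.005 CPM against 13.1, 32.8 and 15.96 CPM (-2.63, FDR = 0.00492), and this call was lost with the 1 CPM filter (FDR = 0.0266), without the second Top1 cKO-Veh library (FDR = 0.0514) and without the first WT-Topot library (FDR = 0.0117). Outside the naming rule, and named after their values were seen, the other 4 called members were Egr3, Nr4a2, Junb and Klf10. The single positive value in the list was that of Jun at 0.16 (123 ± 18.1 against 110.2 ± 21.6 CPM, FDR = 0.974).

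Genes that act downstream of the IEG factors or respond to the same signals gave a like picture. Of 27 effector genes, 10 were lower and none higher (median -0.88; 17 and none with the block, 7 and none with the filter), and none of the 10 exceeded 100 kb. Nptx2, a secreted pentraxin that clusters AMPA receptors, measured 28.5, 14.02 and 38.1 CPM with trapped TOP1 and 166, 153 and 193 CPM with absent TOP1 (-2.69, SE 0.27, FDR = 2.72e-05). Bdnf, the brain-derived neurotrophic factor, measured 31.6, 30.6 and 19.3 CPM and 160.1, 149 and 78.8 CPM (-2.24, SE 0.26, FDR = 0.000106). Neither gene overlapped between the groups. Ptgs2, the inducible cyclooxygenase, was low with the drug at 1.699, 0.858 and 2.19 CPM against 27.01, 16.2 and 9.98 CPM (-3.52, FDR = 0.00033). The G protein signalling regulator Rgs2 was lower by a smaller factor with little spread, at 61.2 ± 6.66 against 162 ± 6.32 CPM (-1.41, FDR = 0.000142).

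Cargo of dense core granules showed the same direction. Of 21 measured neuropeptide and granule genes 3 were lower and none higher (median -0.91), and 20 of 21 values were negative. The block raised this to 17 lower, and the filter left 2. Vgf, a granule precursor protein, measured 204, 188 and 139 CPM in WT-Topot and 1011, 1162 and 592 CPM in Top1 cKO-Veh (-2.38, SE 0.22, FDR = 1.58e-05). Scg2, secretogranin II, was at 359, 399 and 555 CPM against 1219, 1449 and 1150 CPM (-1.54, SE 0.17, FDR = 7.6e-05). Cholecystokinin (Cck), also lower, stood closer between groups at 181 ± 30.7 against 339 ± 68.4 CPM (-0.91, FDR = 0.00945), and lost its call without the second Top1 cKO-Veh, the first WT-Topot or the third WT-Topot library (FDR = 0.0442, 0.0503 and 0.0377). The granule list gave between 2 calls without the second Top1 cKO-Veh library or the first WT-Topot library and 10 without the third Top1 cKO-Veh library. Together these 3 lists hold 68 measured genes, of which 22 were lower, and they account for 22 of the 65 lower genes of up to 100 kb. WT-Veh levels sat beside the deletion for Nr4a1 (90.9 CPM), Fos (80.9 CPM) and Nptx2 (188 CPM) and above it for Bdnf (286 CPM), Vgf (1352 CPM) and Scg2 (2109 CPM). For Cck the WT-Veh level lay between the groups at 202 ± 104 CPM, nearer to the drug than to the deletion.

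**Figure D4:**
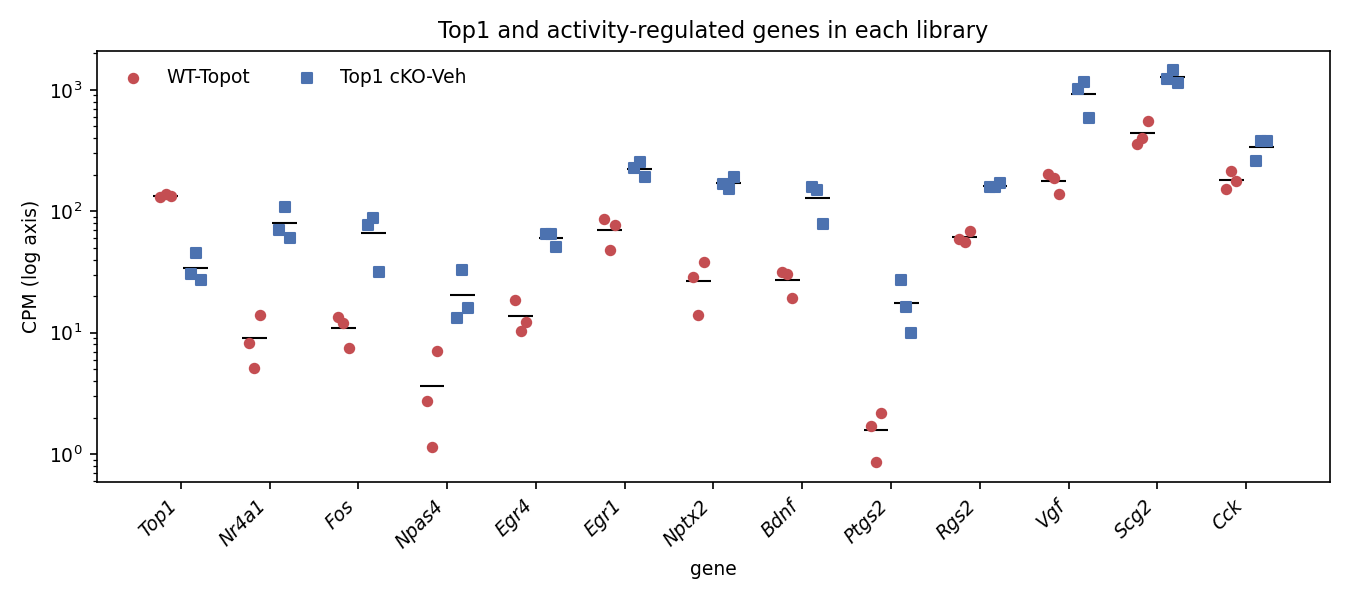
CPM on a log axis of Top1 and 12 IEG, effector and granule genes in each of the 3 WT-Topot (circles) and 3 Top1 cKO-Veh (squares) libraries, with horizontal lines at the group means. Top1 is the 1 gene of the 13 that stands higher in WT-Topot, and no gene has overlapping groups.

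For 4 of the 22 short genes called lower in these lists, Fos, Nr4a1, Npas4 and Scg2, the bases just before the transcription start are shown. Calcium signalling is known to reach such genes through the cAMP response element (CRE), which the factor CREB binds. Each line gives the 250 bases before a RefSeq start (GRCm38.p6, a later build than the mm9 of the counts, 5′ to 3′ on the gene's strand), with the CRE half-site TGACG on either strand in capitals.
Fos, chr12:85473640-85473889, plus strand: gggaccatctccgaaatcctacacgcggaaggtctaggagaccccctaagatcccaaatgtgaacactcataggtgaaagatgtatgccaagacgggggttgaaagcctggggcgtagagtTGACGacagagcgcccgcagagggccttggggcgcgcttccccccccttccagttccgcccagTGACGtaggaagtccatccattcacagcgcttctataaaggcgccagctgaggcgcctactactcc
Nr4a1, chr15:101266596-101266845, plus strand: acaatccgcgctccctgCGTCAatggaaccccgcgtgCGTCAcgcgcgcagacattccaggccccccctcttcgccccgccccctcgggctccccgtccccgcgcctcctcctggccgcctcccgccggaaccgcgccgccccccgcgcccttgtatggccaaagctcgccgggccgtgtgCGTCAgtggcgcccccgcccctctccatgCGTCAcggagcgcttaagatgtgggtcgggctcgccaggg
Npas4, chr19:4989972-4990221, minus strand: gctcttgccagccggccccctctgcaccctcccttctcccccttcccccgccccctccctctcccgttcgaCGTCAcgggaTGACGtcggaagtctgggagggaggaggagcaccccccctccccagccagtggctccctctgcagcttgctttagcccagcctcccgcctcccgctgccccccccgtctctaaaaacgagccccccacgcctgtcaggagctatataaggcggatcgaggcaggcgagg
Scg2, chr1:79440027-79440276, minus strand: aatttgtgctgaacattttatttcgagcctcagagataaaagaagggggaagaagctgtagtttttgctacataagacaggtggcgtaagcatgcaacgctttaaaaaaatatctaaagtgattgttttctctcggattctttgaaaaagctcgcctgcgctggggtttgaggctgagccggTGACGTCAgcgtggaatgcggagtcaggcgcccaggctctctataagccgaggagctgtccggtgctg
Fos held 2 half-sites, Nr4a1 held 4, Npas4 held 2, and Scg2 held the full palindrome TGACGTCA, which counts as 2 overlapping half-sites. A half-site stood in 6 of the 6 promoters available for called IEG factors and in 60.0% of the 20 promoters of 14 called IEG, effector and granule genes. It also stood in 56.5% of the 46 promoters of 34 members of these lists that were not called. Among all 32851 promoters of the same length the share was 17.8%, among those of genes of at least 1 CPM 25.9%, and among those of lower genes over 100 kb 17.1%. The full CRE stood in 1.55% of all promoters and in 2 of the 20, the AP-1 site TGANTCA in 6.75% and 1 of 20, and the CArG box of the serum response element in 1.47% and 1 of 20. Among genes of at least 1 CPM these shares were 2.55%, 4.33% and 1.18%. In the 46 promoters of members not called, the 3 motifs stood in 6 (13.0%), 1 (2.17%) and 4 (8.70%). The full CRE and the CArG box were thus no more frequent in called than in uncalled members. These windows are matched by symbol and reach no further than 250 bases, and a match describes letters, not binding.

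**Figure D5:**
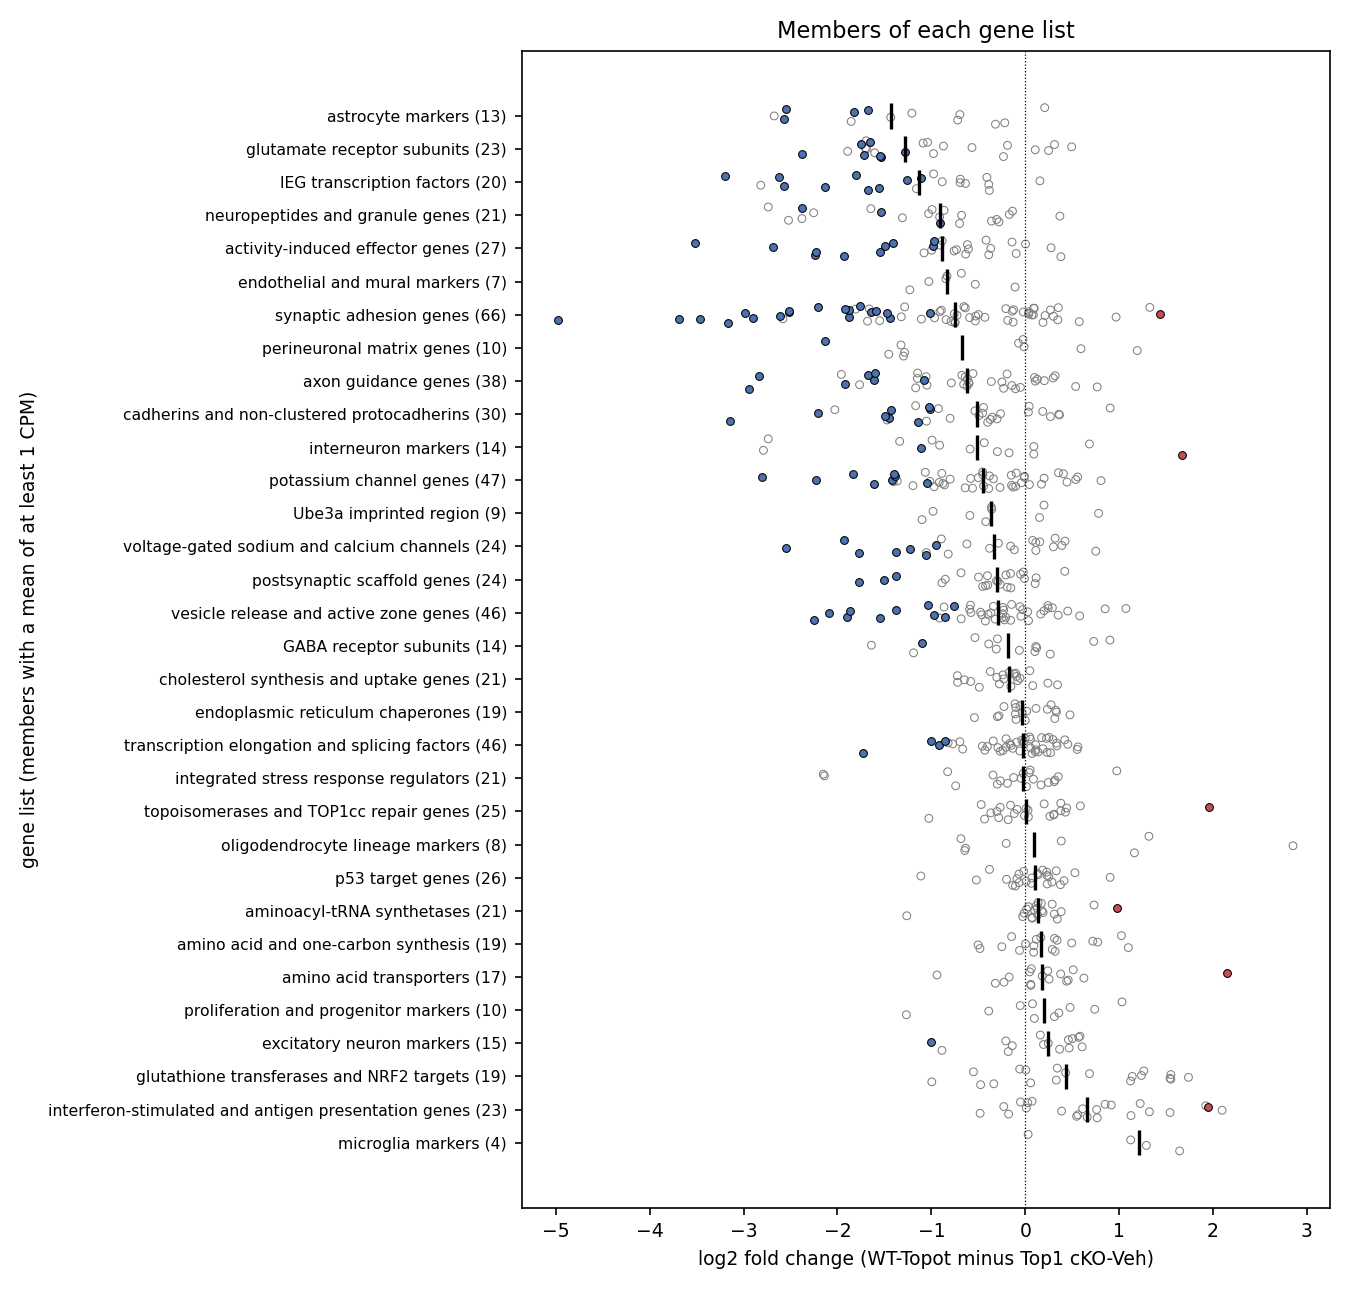
Log2 fold change (WT-Topot minus Top1 cKO-Veh) of each member averaging 1 CPM or more in 32 gene lists, the number of such members in brackets. Filled points passed FDR 0.01 (blue lower, red higher), open points did not, and thick ticks mark list medians, which run from -1.43 for astrocyte markers to 1.21 for the 4 microglia markers.

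Stress programmes separated trapped from absent TOP1 little or not at all by the unblocked test. By edgeR, none of 26 p53 target genes was called in either direction (median 0.10), nor by the exact test or DESeq2, with 3 lower and 3 higher at an unadjusted p of 0.05. A trapped cleavage complex is a known source of DNA damage, but a contrast of drug with deletion does not show the effect of the drug alone. Cdkn1a, the p53-induced cell cycle inhibitor p21, measured 309, 219 and 183 CPM with topotecan and 276, 251 and 151 CPM with deletion (0.07, SE 0.22, FDR = 1). WT-Veh averaged 230 CPM for Cdkn1a. The members with the smallest p were Perp (0.90, FDR = 0.127) and Rrm2b (0.53, FDR = 0.15), and the blocked fit called 2 lower and 3 higher, Perp (FDR = 0.00739) and Rrm2b (FDR = 0.0053) among them. Of 25 topoisomerase and cleavage complex repair genes the only call was Top1. The regulators of the integrated stress response had no edgeR call among 21 (median -0.02), with 1 lower by the exact test and 1 by DESeq2 and 3 lower at an unadjusted p of 0.05. Atf4, its main transcription factor, measured 155, 189 and 149.7 CPM against 277, 247 and 304 CPM without overlap (-0.74, FDR = 0.0164), and passed with the block (FDR = 3.67e-06). Asns, an Atf4 target that makes asparagine, was alike in level at 110.4 ± 10.04 and 115 ± 11.8 CPM (-0.06, SE 0.17, FDR = 1), both under the 278 CPM of WT-Veh. Amino acid and one-carbon synthesis genes (19 measured, median 0.17) and endoplasmic reticulum chaperones (19, median -0.03) gave no call by unblocked edgeR, the exact test or DESeq2, and each had 2 higher genes at an unadjusted p of 0.05, the chaperones also 1 lower. Shmt2, which feeds the mitochondrial one-carbon pathway, stood at 1.03 (FDR = 0.0653) and was called higher with the block (FDR = 0.00196), as was the chaperone Hspa5 (0.33, FDR = 0.359, and 0.00938 with the block). Cholesterol genes (21, median -0.17) had none by unblocked edgeR, 1 lower by the exact test and 1 by DESeq2, 2 lower with the block and 4 lower at an unadjusted p of 0.05. A p that misses the threshold does not show equal levels.

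Another 3 lists had positive medians and few calls. Interferon-stimulated and antigen presentation genes had a median of 0.66 with 1 call among 23 (4 higher with the block), Irf9, a subunit of the interferon-activated factor ISGF3, at 23.5, 14.6 and 28.02 CPM against 9.13, 3.28 and 4.99 CPM (1.95, FDR = 0.0068, 0.0246 with the filter). Glutathione transferases and NRF2 targets had a median of 0.43 without an edgeR call among 19, but 2 higher by the exact test and by DESeq2, 8 higher and 2 lower at an unadjusted p of 0.05, and 5 higher and 1 lower with the block. Gstm4 (1.74, FDR = 0.0164) and Gstm5 (1.14, FDR = 0.0185) came closest and were called higher with the block, and reads of these paralogs may be shared between them. Gstm4 measured 24.5, 74.1 and 23.6 CPM against 10.3, 16.2 and 9.48 CPM, and its FDR was 0.128 without the second WT-Topot library. The FDR of Gstm5 was 0.108 without the second Top1 cKO-Veh library. Aminoacyl-tRNA synthetases had a median of 0.13 and 1 higher call among 21 (2 higher and 1 lower with the block), Qars, which charges glutamine tRNA (61.8 ± 2.79 against 31.2 ± 2.72 CPM, 0.98, FDR = 0.00899). The Irf9 call was lost without the second Top1 cKO-Veh, the first WT-Topot or the third WT-Topot library (FDR = 0.0441, 0.0146 and 0.0279), and that of Qars without any of 5 libraries (FDR between 0.0208 and 0.0311). Without the third Top1 cKO-Veh library 4 glutathione genes were higher.

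The higher genes formed no single class. Slc7a3, a transporter of cationic amino acids (chrX:98274549-98281359), was the single call among 17 amino acid transporters (list median 0.18; 1 higher and 1 lower with the block) and measured 34.3, 24.3 and 14.01 CPM with topotecan and 7.94, 5.62 and 2.49 CPM with deletion (2.14, SE 0.39, FDR = 0.00381). WT-Veh libraries averaged 70.4 CPM, so both treated groups lay below the untreated level, the deletion further so. Cd24a, a surface glycoprotein of immature neurons, was at 283, 291 and 177 CPM against 69.9, 52.7 and 38.9 CPM (2.21, SE 0.23, FDR = 3.52e-05), with 193 CPM in WT-Veh. Gpr4, a proton-sensing receptor, had 52, 16 and 19 counts with topotecan against 1, 3 and 2 counts with deletion. By group mean it was at least 9.02-fold higher against a floor of 3 counts per library, and WT-Veh averaged 11.2 CPM. Klhl4, a kelch-like protein gene, stood at 22.6 ± 4.70 against 5.39 ± 1.72 CPM (2.06, FDR = 0.00137) and at 22.2 CPM in WT-Veh. The calls of Slc7a3 (FDR = 0.0150 and 0.0161) and Gpr4 (FDR = 0.01001 and 0.0134) were lost without the second Top1 cKO-Veh or the first WT-Topot library. For all 4 of these genes the WT-Veh mean lay nearer to the drug than to the deletion.

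For other higher genes the WT-Veh mean was nearer to the deletion. Enpp2, which codes for autotaxin, the enzyme that makes lysophosphatidic acid, measured 37.7, 40.6 and 47.7 CPM and 13.503, 6.09 and 10.5 CPM (2.10, FDR = 0.000404), with 16.6 CPM in WT-Veh. Calb2 measured 30.9, 28.6 and 35.9 CPM and 11.9, 8.67 and 9.48 CPM, with 7.94 CPM in WT-Veh. The TGF-β family ligand Gdf11 (2.05, FDR = 0.00184), the orphan receptor Gpr52 (1.99, FDR = 0.000799), the kinase Cdkl4 (2.13, FDR = 0.000707) and the small GTPase Rab7l1 (2.50, FDR = 0.0049) behaved alike. Smco3 (2.30), Ldhd (2.38), Sec14l3 (2.07), Rsph4a (2.05) and Krt1 (2.02) complete, with Top1, the 15 largest differences among higher genes of at least 5 CPM, and of these 5 Rsph4a had a WT-Veh mean nearer to the drug. Several of these calls were lost when 1 library was left out. Without the second Top1 cKO-Veh library those of Gdf11 (FDR = 0.0125), Krt1 (0.0238), Ldhd (0.0616), Rsph4a (0.0315) and Calb2 (0.0105) were lost. Their log2 fold changes in that refit still ran from 1.56 (Calb2) to 2.08 (Ldhd). The call of Rab7l1 was lost without the first (0.0107) or the third (0.0117) WT-Topot library, where Krt1, Ldhd and Rsph4a were lost too. Over all 70 higher genes the WT-Veh mean was nearer to the deletion in 47 and nearer to the drug in 23.

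Among the lower genes that position was one-sided. The WT-Veh mean was nearer to absent TOP1 than to trapped TOP1 in 276 of 295 (93.6%), lay between the groups in 108, above both in 185 and below both in 2. Sema5a was one of those with an untreated mean between the groups, with 138 ± 37.2 CPM under deletion, 68.5 CPM in WT-Veh and 19.5 ± 5.10 CPM under the drug. Cadm2 was one of the 185 above both, with 342 ± 79.3 CPM under deletion, 725 CPM in WT-Veh and 37.8 ± 15.9 CPM under the drug. The same shares over all 13703 genes are not given here, so these counts have no background beside them. These positions are a description of levels, since no WT-Veh library entered a test.

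In 2 places a higher gene lay wholly inside a lower gene, on the opposite strand. Lrrtm1, a synaptic adhesion gene of 15.1 kb (chr6:77192683-77207785, plus strand), lies within the span of Ctnna2 (minus strand) and measured 333, 301 and 291 CPM with trapped TOP1 and 119, 142 and 79.8 CPM with absent TOP1 (1.43, SE 0.20, FDR = 0.000351). It is the one higher call of the synaptic adhesion list, while its host was among the lowest. Omg, the gene of oligodendrocyte myelin glycoprotein (3.10 kb, chr11:79314484-79317586, minus strand), sits in Nf1 (plus strand) and measured 225, 161 and 220.2 CPM against 107, 90.2 and 75.8 CPM (1.15, FDR = 0.00173), and Nf1 measured 42.8, 64.7 and 55.2 CPM against 124, 160.5 and 98.3 CPM (-1.24, FDR = 0.00276). Both pairs were picked out after their values were seen. Of all 13 genes of at least 1 CPM that lie inside a lower gene on the other strand, these 2 were higher, none was lower, and 9 had negative values (median -0.93). The sources do not state whether counting used strand, so reads of such pairs cannot be assigned beyond doubt where exons overlap.

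Ube3a, the gene whose silent paternal copy topotecan is known to switch on in neurons, did not pass the test between the 2 states. It measured 206, 365 and 322 CPM with trapped TOP1 and 230.3, 321 and 225 CPM with absent TOP1, with overlapping groups (298 ± 82.4 against 259 ± 53.9 CPM, 0.20, SE 0.21, FDR = 0.885, 0.414 with the block), and WT-Veh averaged 196 CPM. The counts do not distinguish the parental copies. By edgeR, the exact test and DESeq2, none of the 9 measured genes of the list written for its imprinted region was called. At an unadjusted p of 0.05, 3 of the list were lower. The list also names Snhg11, whose place in the region was not checked. Ndn stood at -0.59 (FDR = 0.101) and Magel2 at -1.10 (FDR = 0.282). The blocked fit called 2 genes of this list lower, Ndn among them (FDR = 5.44e-07) but not Magel2 (FDR = 0.0245).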

How the data were processed

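RNA-seq libraries of cortical neuron cultures were analysed, 3 per group, from raw counts per gene symbol. According to the labels and the study's methods, the authors made TruSeq RNA libraries, cleaned 50 bp paired-end reads (TagDust), mapped them to mm9 (TopHat, default settings), took out rRNA reads and deposited raw counts over RefSeq gene models. The counting program, its strand setting and versions are not given in the sources used here. From the deposited counts, edgeR 4.0.16 (R 4.3.3) was run on the 6 libraries with TMM factors, no filter and the quasi-likelihood test, at an FDR of 0.01 over 23893 genes. CPM levels of WT-Veh are on the same scale and untested. Gene spans came from GENCODE vM1 (mm9), directly for 21013 symbols and through RefSeq synonyms for 1046. Replicate numbers paired the libraries: deviations from group means correlated at r = 0.402 to 0.425 for equal numbers (3 pairs, 13703 genes). For unequal numbers r was -0.27 to -0.13, where centring on group means forces negative values on average once equal numbers correlate. Blocked values are therefore given where they change a call or a count by over 1.5 times. Libraries of a group differed by more than counting noise. Named genes were the 15 lowest and 15 highest called log2 fold changes (at least 5 CPM, groups apart), up to 4 called members per list and direction by p (2 uncalled where none), and 12 fixed genes, and some of these are not reported here. The comparison, lists and rules were chosen with earlier results of these data known. Alternatives were DESeq2 1.42.0, the edgeR exact test, other scalings, filters, a block, all 12 libraries, another FDR and leaving out libraries. Scripts were tested on simulated counts of 23893 genes with 200 of them changed. At FDR 0.01 the test called 42 of 100 genes changed by 1 log2 unit and 97 of 100 changed by 2. It also called 18 unchanged genes, a larger share of the calls than 0.01. Calls here may thus hold more false ones than the threshold names, and 2-fold differences were often missed.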

Additional observations from a re-analysis of the deposited data

How the results depend on the processing

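For lower genes (295), the replicate block gave 1147, DESeq2 465, an FDR of 0.05 553 and the 1 CPM filter 165, and leaving out 1 library gave 173 to 652. For higher genes (70), the block gave 699, DESeq2 160, the exact test 185, library totals 121, an FDR of 0.05 247, filterByExpr 40 and the 1 CPM filter 32, and leaving out 1 library gave 41 to 219. The remaining settings moved neither count by over 1.5 times, and 134 lower and 25 higher genes were called under all 15 refits. The cause of these differences was not tested, except that filters and left-out libraries change the genes or samples by construction. The long gene shift (-0.60) was -0.36 at a limit of 50 kb and -0.97 at 200 kb, between -0.61 and -0.60 with another scaling, pseudocount or filter, and between -0.72 and -0.52 without 1 library. Paired by replicate number, its differences ran from -0.83 to -0.40, with p = 0.25 in the exact sign-flip test, the smallest 3 pairs allow. Among 84 named called genes and 1259 refits, no direction reversed, 106 refits lost the call and 56 genes kept it under every alternative. Of 396 list medians, 13 moved by more than the spread between libraries. Scaling moved the median of all genes by at most 0.09. Depth limits calls at a few CPM, where 1 CPM is 2.005 to 4.27 counts.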
